A study of Homo sapiens with 27 samples.

Results

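The genes described here are 10 parts of the protein-folding machinery of the endoplasmic reticulum (ER): HSPA5, HSP90B1, CALR, CANX, PDIA3, PDIA4, PDIA6, P4HB, XBP1 and SEL1L. They were found as every transcript in the count files whose GENCODE gene symbol is one of these names, which gave 62 transcripts of 93530 listed and 10 genes of 18776. The cells were RM82, a human Ewing's sarcoma line. By their labels, 3 libraries came from cells incubated for 24 h with SGC-CLK-1, an inhibitor of CDC-like kinases, which phosphorylate splicing factors, and 3 from cells given the solvent dimethylsulfoxide (DMSO). The concentration is not given in the sources used here. The comparison asks which genes and transcripts of ER folding differed in level when a splicing kinase was inhibited. The values are counts of unique molecular identifiers (UMIs), the random tags that mark each captured molecule. In total, 666702, 362826 and 373004 UMIs had been counted in the libraries labelled SGC-CLK-1, in the order of their replicate numbers, and 416352, 523456 and 372876 in those labelled DMSO. All values below follow this order. Nothing in the labels says that the replicates were separate cultures, so the p-values measure the spread between these libraries. Every direction below rests on the labels, and these are in doubt. The FRG2 transcript ENST00000645766 was counted 96, 88 and 95 times under the DMSO label, and 64, 44 and 60 times under that of the inhibitor. The study draws the groups of this transcript in the opposite order, so the labels may be exchanged in the deposit or in the drawing, and these files cannot tell which. A second transcript that the study draws, TLE5 ENST00000221561, was counted 11, 8 and 7 times under the label of the inhibitor, and 10, 10 and 12 times under that of DMSO. Beside its drawing, these counts fit an exchange for one of the groups and not for the other. SGC-CLK-1 and DMSO below mean the libraries so labelled, and an exchange would turn every sign. RNA came from a culture as a whole, in which fewer cells expressing a gene and less RNA per cell cannot be told apart.

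Proteins that enter the ER are folded by chaperones and by enzymes that form disulfide bonds. HSPA5 (BiP) is the hsp70 chaperone of the ER and HSP90B1 (GRP94) its hsp90. Calreticulin (CALR) and calnexin (CANX) hold glycoproteins that carry a trimmed sugar chain, and PDIA3 works with them as a disulfide isomerase. P4HB, PDIA4 and PDIA6 are further disulfide isomerases. SEL1L is the partner of the ubiquitin ligase SYVN1 (HRD1), through which misfolded proteins leave the ER to be degraded (ER-associated degradation). When unfolded protein builds up, the sensors IRE1 (ERN1), PERK (EIF2AK3) and ATF6 start the unfolded protein response. IRE1 cuts a short intron out of XBP1 mRNA, which lets it encode an active transcription factor. PERK slows translation and raises ATF4, which in turn drives DDIT3 (CHOP). ATF6 and XBP1 act on promoters that carry the ER stress response element (ERSE), the letters CCAAT and CCACG separated by 9 bases.

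The ERSE shows what most of these genes have in common at the sequence level. It was searched on both strands as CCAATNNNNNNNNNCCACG in RefSeq promoter windows of 300 bases on GRCh38.p14, from 250 before to 50 after each start site. A window was held for 9 of the 10 genes, all but PDIA3. The element was in 27 of 35116 windows of all genes (0.0769%). By gene, it was in the windows of 25 of 27305 genes (0.0916%) and of 6 of these 9. HSP90B1 had 2 matches. The matches are shown 5′ to 3′ on the strand on which the motif reads forward, with the fixed letters CCAAT and CCACG in capitals.
HSPA5 (chr9:125241391-125241409, minus strand): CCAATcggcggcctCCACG
HSP90B1, upstream match (chr12:103930216-103930234, plus strand): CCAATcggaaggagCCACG
HSP90B1, downstream match (chr12:103930321-103930339, minus strand): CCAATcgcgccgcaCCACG
CALR (chr19:12938384-12938402, minus strand): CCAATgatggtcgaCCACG
CANX (chr5:179698778-179698796, plus strand): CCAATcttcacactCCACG
PDIA6 (chr2:10812853-10812871, minus strand): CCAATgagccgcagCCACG
XBP1 (chr22:28800603-28800621, minus strand): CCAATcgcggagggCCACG
The motif read in the direction of the gene in HSPA5, CANX, PDIA6, XBP1 and the upstream match of HSP90B1, and against it in CALR and the downstream match of HSP90B1. These exact letters were not in the windows of SEL1L, PDIA4 and P4HB. The ERSE was first described on chaperone promoters of this kind, so its presence there is background and not a result of these libraries. Among the 90 other ER genes of the lists given further on that had a window, it was in 2, CRELD2 and ERO1B.

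The 10 genes gathered 6576 counts over the 6 libraries, of which HSP90B1 supplied 47.9%, a share that may be raised by molecules counted on several of its transcripts, as described below. Their share of a library's counts was 0.223%, 0.230% and 0.198% in SGC-CLK-1 and 0.290%, 0.235% and 0.289% in DMSO. The 3 SGC-CLK-1 libraries lay below the 3 DMSO libraries, although SGC-CLK-1 replicate 2 and DMSO replicate 2 were close. Counts were summed over the transcripts of each gene and tested with edgeR over all genes, and 8 of the 10 passed the filter on low counts. PDIA3 and XBP1 did not pass it. Of the 8, none reached a Benjamini-Hochberg adjusted p under 0.05, where 0.236% of the 6344 genes tested did. At an unadjusted p under 0.05, SEL1L and HSP90B1 were lower in SGC-CLK-1, which is 25% of the 8 against 6.97% of all genes in that direction (13.9% in either). None was higher, where 6.89% of all genes were. Both had adjusted p above 0.05. As the 10 genes were chosen with earlier results of these data known, these shares are no test of an excess. The median log2 fold change (SGC-CLK-1 over DMSO) was −0.24 over the 8 genes and −0.0012 over all genes tested, with 6 values below 0 and 2 above. The groups did not overlap for 3 genes, where 19.7% of all genes tested did not overlap. SEL1L and HSP90B1 were lower in every SGC-CLK-1 library (9.71% of all genes) and PDIA6 higher (10%).

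**Figure D1:**
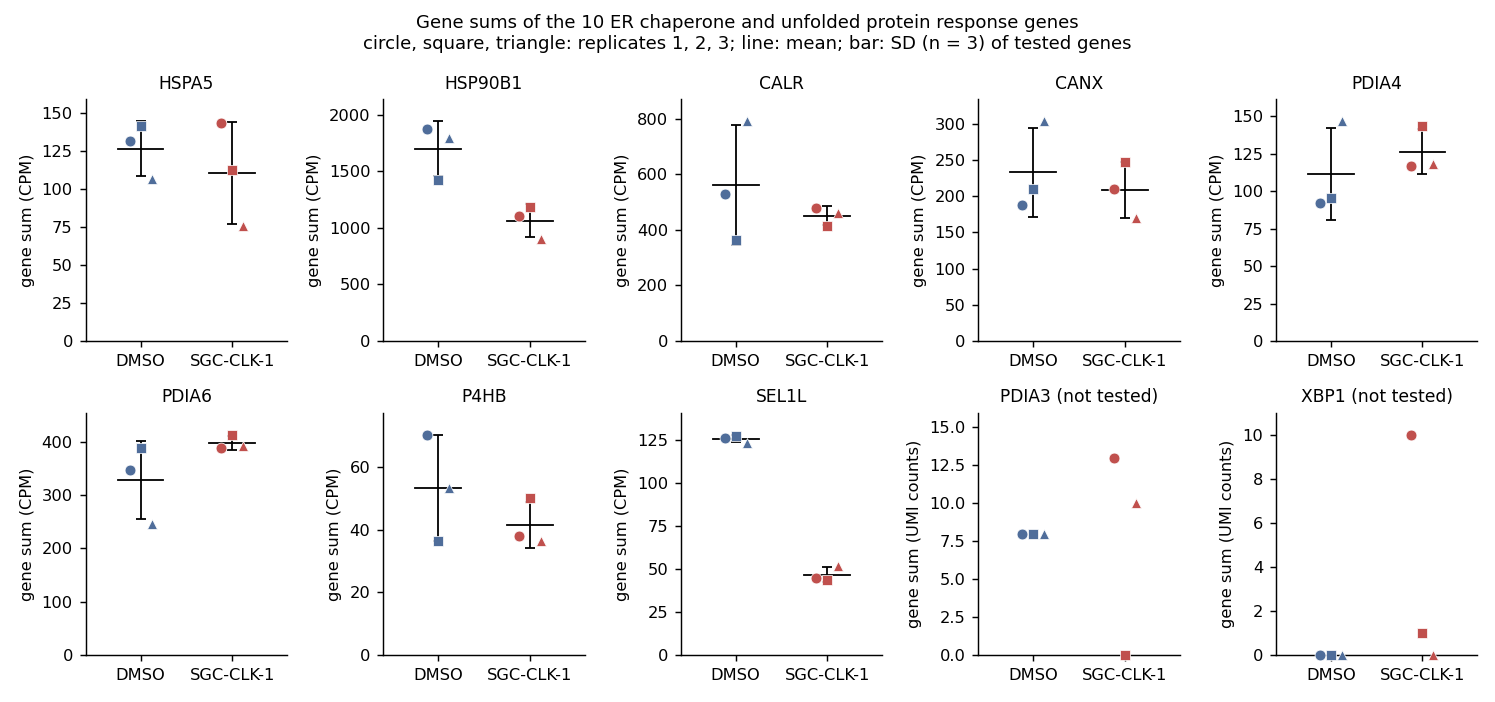
Gene sums in each library, as counts scaled to depth (CPM) for the 8 genes tested and as UMI counts for PDIA3 and XBP1, with DMSO in blue and SGC-CLK-1 in red. Lines and bars are the mean and SD of 3 libraries and symbols mark the replicate number. SEL1L stood between 43.8 and 51.6 CPM in SGC-CLK-1 and between 123.3 and 127.4 CPM in DMSO, whereas HSPA5, CALR, CANX, PDIA4 and P4HB overlapped between groups.

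SEL1L had the largest log2 fold change of the 8 genes tested. It lies on the minus strand of chromosome 14 (chr14:81471547-81533853, GRCh38). Its gene sum was 26, 14 and 17 counts in SGC-CLK-1 and 45, 56 and 37 counts in DMSO. As CPM, the count scaled to the depth of a library over the genes tested and corrected for composition by the trimmed mean of M values (TMM), this was 44.8, 43.8 and 51.6 in SGC-CLK-1 and 126, 127.4 and 123.3 in DMSO. All 3 SGC-CLK-1 libraries were far below all 3 DMSO libraries. The spread within either group was small, smaller than counting error alone would usually give on 14 to 56 counts per library. It therefore says little of how reproducible the level is. The mean was 46.7 ± 4.26 CPM against 125.6 ± 2.11 CPM (SD, n = 3 each). The log2 fold change of the gene sum was −1.43 (SE 0.29), with an unadjusted p of 0.000225 and an edgeR adjusted p of 0.0539, just over the threshold.

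At the transcript level SEL1L passed. Its transcript ENST00000336735, with 21 exons, held 97.9% of the counts of the gene. It had 25, 13 and 17 counts in SGC-CLK-1 and 44, 56 and 36 counts in DMSO, again without overlap. The transcript fell by 1.38 on the log2 scale (SE 0.27, edgeR adjusted p = 0.00375), which is 2.60-fold lower in SGC-CLK-1. In the fit over transcripts 3.95% of 7840 were called, and the common biological coefficient of variation was 0.169, against 0.244 in the fit over genes. The transcript stayed under an adjusted p of 0.05 in 12 of 12 alternative settings, with adjusted p between 0.00162 and 0.0349, and the gene sum passed in 4 of 14. The second transcript, ENST00000555824, had 1, 1 and 0 counts in SGC-CLK-1 and 1, 0 and 0 in DMSO. With so few counts on other forms, no shift between SEL1L isoforms could be tested at this depth.

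HSP90B1, the hsp90 chaperone of the ER, was next. Its gene sum (chr12:103930107-103953931, plus strand) was 640, 380 and 297 counts in SGC-CLK-1 and 669, 624 and 539 counts in DMSO. In CPM this was 1102, 1187 and 901 in SGC-CLK-1 and 1874, 1420 and 1796 in DMSO. The groups did not overlap, with DMSO replicate 2 the nearest to the SGC-CLK-1 libraries. The means were 1064 ± 147 and 1696 ± 243 CPM (SD, n = 3 each). The log2 fold change was −0.67 (SE 0.19, unadjusted p = 0.00302, edgeR adjusted p = 0.122), so it did not pass the test over all genes, and it passed in 1 of 14 alternative settings (DESeq2, adjusted p = 0.0319).

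Of 11 HSP90B1 transcripts counted, 4 were tested, and these held 96% of the counts of the gene. They form 2 pairs by their start. ENST00000614327 (protein coding, 17 exons) and ENST00000640977 (retained intron, 7 exons) begin 52 and 47 bases upstream of ENST00000299767. ENST00000299767 (protein coding, 18 exons) and ENST00000548462 (retained intron, 17 exons) begin at chr12 positions 103930410 and 103930438. Both transcripts with the upstream start fell in SGC-CLK-1. ENST00000640977 had 92, 50 and 39 counts in SGC-CLK-1 and 121, 92 and 88 in DMSO. Its level fell by 0.86 on the log2 scale (SE 0.23, edgeR adjusted p = 0.0295). ENST00000614327 had 98, 56 and 43 counts in SGC-CLK-1 and 124, 101 and 87 in DMSO. Its level fell by 0.78 on the log2 scale (SE 0.22, edgeR adjusted p = 0.042). After scaling all 4 transcripts, those of the other pair included, lay lower in every SGC-CLK-1 library than in every DMSO library, as did 11.2% of all transcripts tested. These calls were near the threshold: ENST00000640977 passed in 7 of 12 alternative settings and ENST00000614327 in 5 of 12. Both calls were lost when SGC-CLK-1 replicate 1, 2 or 3 or DMSO replicate 1 was left out, with adjusted p between 0.0592 and 0.224 for ENST00000640977 and between 0.0824 and 0.282 for ENST00000614327.

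The other pair did not pass, although its groups did not overlap either. After scaling, ENST00000299767 lay at 389.1 to 520.4 CPM in SGC-CLK-1 and 559.8 to 695.8 CPM in DMSO (unadjusted p = 0.0312 in edgeR), and ENST00000548462 at 393 to 520.4 CPM and 573.7 to 695.8 CPM (unadjusted p = 0.0289). ENST00000299767 had 215, 131 and 100 counts in SGC-CLK-1 and 202, 202 and 162 in DMSO, with a log2 fold change of −0.44 (SE 0.20, edgeR adjusted p = 0.229). ENST00000548462 had 216, 131 and 101 counts in SGC-CLK-1 and 202, 207 and 162 in DMSO, with a log2 fold change of −0.45 (SE 0.20, edgeR adjusted p = 0.22). These 2 transcripts had nearly the same count in each library. Their counts were equal in 3 libraries and differed by 7 in all, out of 1012 and 1019. The upstream pair was also close, with 29 counts of difference out of 509 and 482. The authors kept secondary alignments, by which a molecule can be placed on more than 1 transcript of a gene, and their part in these equal counts was not tested. The HSP90B1 gene sum, and the share of it on retained-intron forms, therefore may hold the same molecule more than once.

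**Figure D2:**
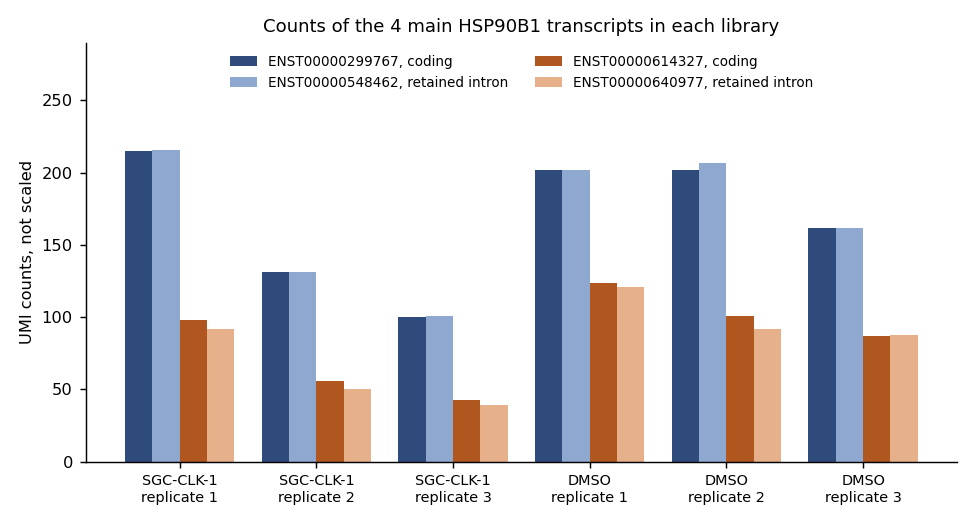
UMI counts, not scaled for depth, of the 4 HSP90B1 transcripts tested in each of the 6 libraries. The 2 blue bars of a library are nearly equal, as are the 2 orange ones, and the orange pair is shorter beside the blue in SGC-CLK-1 (98 against 215 in replicate 1) than in DMSO (124 against 202 in replicate 1).

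Because a call for one pair and not for the other does not show that they differ, the difference itself was examined. There were 45.6, 42.8 and 43 counts of ENST00000614327 per 100 counts of ENST00000299767 in SGC-CLK-1. In DMSO there were 61.4, 50 and 53.7. The groups did not overlap, with means of 43.8 ± 1.57 and 55 ± 5.81 (SD, n = 3 each), and the exact two-sided permutation test gave p = 0.1, the smallest that 3 against 3 allows. This ratio was chosen after its counts were seen. In the test of transcript usage across all genes (edgeR diffSpliceDGE), HSP90B1 had an unadjusted p of 0.584 and an adjusted p of 1, so no shift in usage was called.

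The annotated forms differ in ways that bear on the protein. ENST00000614327 lacks an exon of 156 bases, or 52 codons, of ENST00000299767. It is shown here from GRCh38 because it separates the 2 coding transcripts, in lower case as a whole.
HSP90B1 exon (chr12:103946786-103946941, plus strand): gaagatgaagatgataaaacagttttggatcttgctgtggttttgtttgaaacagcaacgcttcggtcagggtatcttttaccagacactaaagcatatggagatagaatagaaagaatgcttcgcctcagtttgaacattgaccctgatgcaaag
ENST00000548462 keeps an intron of 277 bases (chr12:103942797-103943073). ENST00000640977 ends at chr12 position 103938535, 76 bases beyond a splice site that ENST00000299767 uses. Reads that reach only the parts shared by these forms cannot tell them apart.

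HSPA5, the hsp70 chaperone whose rise is the usual sign of ER stress, showed no such difference. Its only counted transcript of 15 annotated, ENST00000324460, had 83, 36 and 25 counts in SGC-CLK-1 and 47, 62 and 32 in DMSO. In gene-level CPM this was 143, 112.5 and 75.9 in SGC-CLK-1 and 131.6, 141.1 and 106.6 in DMSO. The groups overlapped widely, and the highest and lowest of the 6 libraries were both of the SGC-CLK-1 group. The log2 fold change of the gene sum was −0.18 (SE 0.29, edgeR adjusted p = 0.838), and it changed sign when SGC-CLK-1 replicate 3 was left out (0.01).

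The lectin chaperones likewise overlapped. CALR had 479, 412.5 and 461 CPM in SGC-CLK-1 and 529, 362 and 790 CPM in DMSO. The SGC-CLK-1 libraries were close together, while DMSO replicates 2 and 3 were the lowest and highest of the 6. The log2 fold change was −0.30 (SE 0.25, edgeR adjusted p = 0.652). CANX had 210.2, 247 and 170 CPM in SGC-CLK-1 and 188, 209 and 303 CPM in DMSO, with a log2 fold change of −0.15 (SE 0.25, edgeR adjusted p = 0.841). For both genes DMSO replicate 3 was the highest library, and without it the log2 fold change was 0.02 for CALR and 0.07 for CANX. The main CALR transcript, ENST00000316448, had a log2 fold change of −0.11 (SE 0.23) and ENST00000586760 one of −0.53 (SE 0.33), which was −0.22 without DMSO replicate 3 and −0.86 without DMSO replicate 2. The CANX transcripts ENST00000247461 and ENST00000452673, at 0.11 and −0.05, were again nearly equal in counts, 231 and 221 over the libraries. ENST00000247461 had 0.045 without DMSO replicate 2 and 0.23 without DMSO replicate 3.

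Among the disulfide isomerases, PDIA6 was slightly higher in each SGC-CLK-1 library. It had 389.3, 412.5 and 391.5 CPM in SGC-CLK-1 and 347, 389.1 and 246.5 CPM in DMSO. The groups only just failed to overlap, since SGC-CLK-1 replicate 1 and DMSO replicate 2 had almost the same level, and the difference was within the spread of the DMSO libraries. The log2 fold change was 0.27 (SE 0.22, edgeR adjusted p = 0.629). All 6 PDIA6 transcripts tested had positive log2 fold changes, from 0.10 to 0.89, and none passed. These transcripts overlap and some had nearly the same counts, such as ENST00000404371 and ENST00000617249 with 130 and 137 over the libraries, so the 6 values are not separate observations. DMSO replicate 3 was the lowest library for the gene. Without it the log2 fold change was 0.10 for the gene sum, 0.15 for ENST00000540494 and 0.025 for ENST00000272227. Without DMSO replicate 2 these values were 0.41, 0.51 and 0.45. ENST00000540494 had a log2 fold change of 0.33 (SE 0.26) and ENST00000272227 one of 0.29 (SE 0.28). The largest, ENST00000404824, had 24, 12 and 15 counts in SGC-CLK-1 and 9, 13 and 4 in DMSO (log2 fold change 0.89, SE 0.38, edgeR adjusted p = 0.209), and it is named because of this value.

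PDIA4 and P4HB did not differ beyond the spread between libraries. PDIA4 had 117.1, 144 and 118.4 CPM in SGC-CLK-1 and 92.4, 95.6 and 147 CPM in DMSO, so that DMSO replicate 3 was above all SGC-CLK-1 libraries. Its log2 fold change was 0.19 (SE 0.28, edgeR adjusted p = 0.825), and with 1 library left out it ran from 0.065 without DMSO replicate 1 to 0.41 without DMSO replicate 3. Its transcripts ENST00000286091 and ENST00000652332 had 131 and 132 counts in all and equal counts in 5 of 6 libraries, with log2 fold changes of 0.29 and 0.31. These were 0.18 and 0.20 without DMSO replicate 1, and 0.46 and 0.48 without DMSO replicate 3. P4HB, also the β-subunit of collagen prolyl 4-hydroxylase, had 37.9, 50 and 36.4 CPM in SGC-CLK-1 and 70, 36.4 and 53.3 CPM in DMSO. Its log2 fold change was −0.36 (SE 0.40, edgeR adjusted p = 0.755), and with 1 library left out it ran from −0.11 without DMSO replicate 1 to −0.59 without DMSO replicate 2. Its counts were spread thinly over 12 transcripts, and the leading ones, ENST00000575069 and ENST00000331483, had at most 6 counts in a library.

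**Figure D3:**
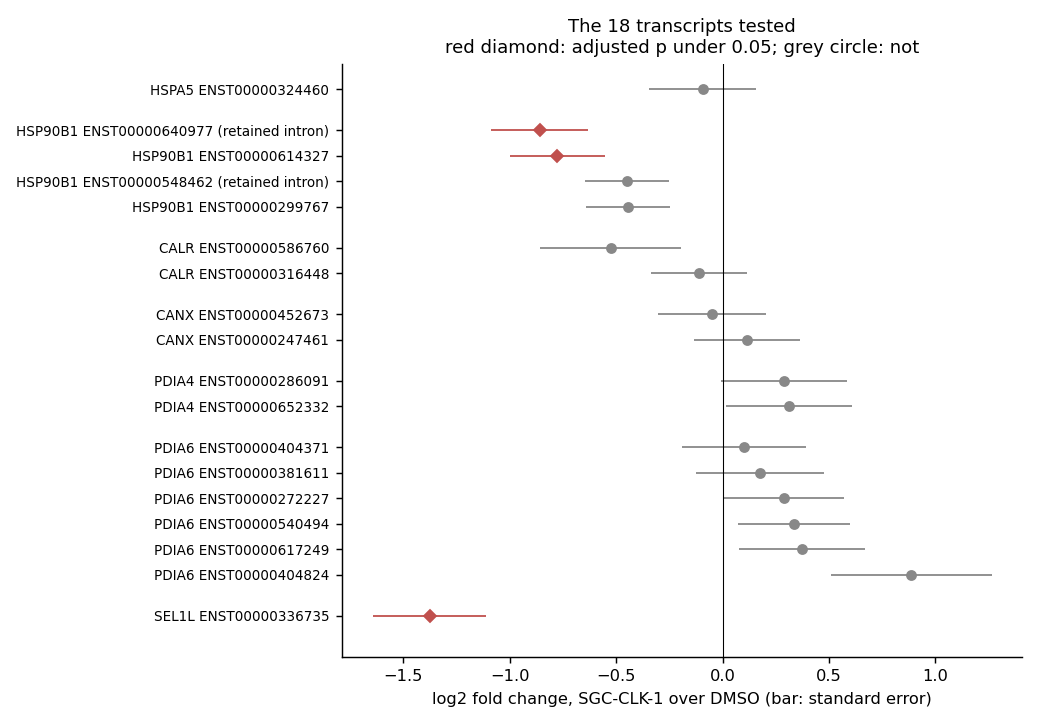
Log2 fold change (SGC-CLK-1 over DMSO) with its standard error for the 18 transcripts tested, by gene. The 3 red diamonds, SEL1L ENST00000336735 and HSP90B1 ENST00000640977 and ENST00000614327, had an edgeR adjusted p under 0.05, and all 3 lie below 0, while the 6 overlapping PDIA6 transcripts lie above 0.

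In all, 18 of the 62 transcripts were tested and 3 passed, each lower in SGC-CLK-1, where 2.1% of all transcripts tested passed in that direction. As 2 of the 3 belong to HSP90B1 and had similar counts, they are not separate observations. The choice of the genes with earlier results known applies here too. P4HB, PDIA3 and XBP1 had no transcript above the filter.

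PDIA3 and XBP1 were below the filter on low counts. Fitted without the filter in edgeR, PDIA3 had an adjusted p of 0.922, and XBP1 one of 0.285 (unadjusted p = 0.0102). PDIA3 had 13, 0 and 10 counts in SGC-CLK-1 and 8, 8 and 8 in DMSO, 47 in all. No PDIA3 transcript was listed in SGC-CLK-1 replicate 2. Its transcripts ENST00000300289 and ENST00000434494 had between 0 and 5 counts per library. The processed pseudogene PDIA3P1 also had 47 counts (10, 4 and 9 in SGC-CLK-1, 6, 13 and 5 in DMSO). The middle 1000 bases of its transcript ENST00000471856, with 5 of these counts, were 98.8% identical to the PDIA3 mRNA. Those of ENST00000440377 and ENST00000649713, with 21 counts each, were 51.2% identical. Counts of PDIA3 and of ENST00000471856 are therefore uncertain. The pseudogenes HSPA5P1 and XBP1P1 had 2 counts each.

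XBP1 had 10, 1 and 0 counts in SGC-CLK-1 and none in the 3 DMSO libraries. The 10 counts came from a single library, SGC-CLK-1 replicate 1, so a difference between groups cannot be read from them. No fold is given against libraries at 0. The form that IRE1 makes differs from the uncut mRNA by 26 bases, given in capitals within 12 bases of mRNA on either side, in the sense direction and as the annotation places them.
XBP1 (chr22:28796116-28796165, minus strand): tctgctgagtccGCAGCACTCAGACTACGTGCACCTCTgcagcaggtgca
The transcript without these bases, ENST00000344347, had 0 counts. Of the 11 counts, 9 lay on transcripts whose exons hold the 26 bases and 2 on ENST00000482720, which does not reach them. The 9 counts allow a share of cut mRNA of up to 33.3% (3 counts of the total, for counting error only), if each came from a read that covered these bases, which the counts do not show. All 9 came from SGC-CLK-1 replicate 1, and without it there is no limit. It also takes each count as a separate molecule, while ENST00000216037 and ENST00000403532 had equal counts in that library. The counts were on the uncut coding transcripts ENST00000216037 and ENST00000403532 with 3 each, ENST00000405219 with 1, and 2 retained-intron forms. How much XBP1 mRNA had been cut was not detectable at this depth.

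Because a splicing kinase was inhibited, the share of counts on transcripts not annotated as protein coding was compared. Over all libraries, protein-coding transcripts held 71.8% of the counts of the 10 genes, retained-intron transcripts 25.9% and nonsense-mediated decay transcripts 148 counts of 6576. HSP90B1 supplied most of the retained-intron counts, through the 2 forms described above. Its share was 50.8%, 50% and 50.2% in SGC-CLK-1 and 50.8%, 50.6% and 52.1% in DMSO, means of 50.3% ± 0.411 and 51.2% ± 0.815 (SD, n = 3 each). Each of the 2 tested coding forms of HSP90B1 had a retained-intron form with nearly the same counts. If molecules were counted on both, the share would lie near 50%, but this was not tested. The comparison is therefore not read as showing a change, or the lack of one, in its splicing. For CALR the means were 10.1% ± 2.53 and 12.3% ± 3.04, and for P4HB, with few counts, 64% ± 10.3 and 58.3% ± 3.68. The exact two-sided permutation test of 3 against 3 libraries cannot give a p below 0.1, so no gene could pass 0.05. Among the 7 genes compared the smallest p was 0.2, for HSP90B1 (adjusted over the 7 genes, 0.7). The usage test over all genes covered 5 of the 10 genes, HSP90B1, CALR, CANX, PDIA4 and PDIA6, and each had an adjusted p of 1, where 0.277% of the 1805 genes tested were called.

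The other genes of the ER folding pathway were examined in 7 lists with 101 genes, of which 59 were tested. None passed at an adjusted p under 0.05 in edgeR. At an unadjusted p under 0.05 there were 4 lower and 3 higher in SGC-CLK-1, together 11.9% of the 59 against 13.9% of all genes. The groups did not overlap for 9 of the 59, against 19.7% of all genes tested. The median log2 fold change of the 59 was −0.19. The genes named below are the 3 with the smallest p in each list.

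In the PERK branch, DDIT3 and ATF4 had a lower level in each SGC-CLK-1 library than in any DMSO library, as did 9.71% of all genes tested. Of the 8 transcription factors and PERK branch targets, DDIT3 and ATF4 were tested. DDIT3, the pro-apoptotic factor CHOP, had 13, 4 and 9 counts in SGC-CLK-1 and 20, 35 and 26 in DMSO, or 22.4, 12.5 and 27.3 CPM against 56, 79.6 and 86.6 CPM. Its log2 fold change was −1.80 (SE 0.42, unadjusted p = 0.000755, edgeR adjusted p = 0.0748). ATF4, the factor that PERK signalling raises at the level of translation, had 93, 78.1 and 33.4 CPM in SGC-CLK-1 and 207.3, 111.5 and 153.3 CPM in DMSO. Its log2 fold change was −1.16 (SE 0.36, unadjusted p = 0.00577, edgeR adjusted p = 0.146). DDIT3 passed the threshold in 2 of 12 alternative settings and ATF4 in 1 of 14. ATF6 was the one sensor tested, with a log2 fold change of 0.30 (SE 0.32, edgeR adjusted p = 0.741), which was 0.096 without SGC-CLK-1 replicate 2 and 0.47 without SGC-CLK-1 replicate 1. PERK itself (EIF2AK3), named here after its counts were seen, had 7, 4 and 10 counts in SGC-CLK-1 and 2, 0 and 0 in DMSO and was below the filter (edgeR adjusted p = 0.184 without it, unadjusted p = 0.00447). IRE1 (ERN1) had 7 counts in all 6 libraries together.

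In the remaining lists no gene passed at an adjusted p under 0.05, and the lists themselves were not tested. Of 15 other chaperones and co-chaperones 7 were tested, with a median of −0.23. This median was −0.35 without SGC-CLK-1 replicate 1 and −0.15 without DMSO replicate 2. The saposin-like protein CNPY2 had a log2 fold change of −0.50 (SE 0.32), the HSPA5 co-chaperone DNAJC3 one of −0.40 (SE 0.28) and the translocation J-protein SEC63 one of −0.19 (SE 0.29). Single libraries moved these values, to −0.31 without DMSO replicate 3 and −0.78 without DMSO replicate 2 for CNPY2, to −0.20 without DMSO replicate 1 for DNAJC3, and to −0.045 without SGC-CLK-1 replicate 2 and −0.30 without SGC-CLK-1 replicate 3 for SEC63. Of 19 oxidoreductases and prolyl isomerases 8 were tested, with a median of 0.02, which was −0.12 without SGC-CLK-1 replicate 1. ERP29 was higher in each SGC-CLK-1 library, at 55.1, 37.5 and 45.5 CPM against 30.8, 29.6 and 23.3 CPM (log2 fold change 0.73, SE 0.42, edgeR adjusted p = 0.483). The thioredoxin-like TXNDC12 had −0.34 (SE 0.30) and ERP44, which retrieves client proteins from the Golgi, −0.37 (SE 0.37). Without DMSO replicate 3 TXNDC12 had −0.21, and ERP44 had −0.19 without SGC-CLK-1 replicate 1 and −0.55 without SGC-CLK-1 replicate 3. TXNDC12 had −0.14 with protein-coding transcripts only and −0.043 with the most abundant transcript only.

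In the calnexin cycle 5 of 7 genes were tested, with a median of 0.35. UGGT1, the folding sensor that puts glucose back on unfolded glycoproteins, had 143, 118.7 and 155 CPM in SGC-CLK-1 and 89.6, 70.5 and 86.6 CPM in DMSO. The groups did not overlap (log2 fold change 0.76, SE 0.27, unadjusted p = 0.0138, edgeR adjusted p = 0.213). The log2 fold change of UGGT1 was 0.46 with protein-coding transcripts only and 0.49 with the most abundant transcript only. Its relative UGGT2 had 0.22 (SE 0.31) and GANAB, the catalytic subunit of glucosidase II, 0.67 (SE 0.35), which was 0.42 without DMSO replicate 1. UGGT2 had 0.074 with protein-coding transcripts only and 0.060 with the most abundant transcript only. Of 24 genes of ER-associated degradation 16 were tested, with a median of −0.02. NGLY1, which strips the sugar chain from proteins that have left the ER, had 93, 121.9 and 194 CPM in SGC-CLK-1 and 47.6, 84.2 and 56.6 CPM in DMSO (log2 fold change 1.08, SE 0.35, unadjusted p = 0.00764, edgeR adjusted p = 0.166). The ubiquitin-conjugating enzyme UBE2G2 had 191.2, 175 and 130.5 CPM in SGC-CLK-1 and 201.7, 279.8 and 239.9 CPM in DMSO (log2 fold change −0.53, SE 0.24, edgeR adjusted p = 0.346). EDEM3, a mannose-trimming protein, had −0.55 (SE 0.34), which was −0.25 without DMSO replicate 3. The ligase SYVN1, partner of SEL1L and named for that reason, had 18, 6 and 11 counts in SGC-CLK-1 and 2, 7 and 5 in DMSO and was below the filter (edgeR adjusted p = 0.676 without it).

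Of 22 genes of the translocon, signal peptidase and signal recognition particle 20 were tested, 16 with log2 fold changes below 0 and 4 above, and the median was −0.31. It was −0.14 without DMSO replicate 3 and −0.43 without DMSO replicate 2. SEC61A1, the pore of the translocon, stood apart from these. It had 56.9, 140.6 and 85 CPM in SGC-CLK-1 and 36.4, 20.5 and 43.3 CPM in DMSO, without overlap (log2 fold change 1.49, SE 0.43, unadjusted p = 0.00365, edgeR adjusted p = 0.127). It passed in 1 of 12 alternative settings, without a filter on low counts (edgeR adjusted p = 0.0426). SEC62, which helps proteins enter the ER after their translation, had −0.57 (SE 0.24, edgeR adjusted p = 0.307), with overlapping groups, and −0.31 without DMSO replicate 3. SRP72, a protein of the signal recognition particle, had −0.44 (SE 0.24, edgeR adjusted p = 0.451).

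**Figure D4:**
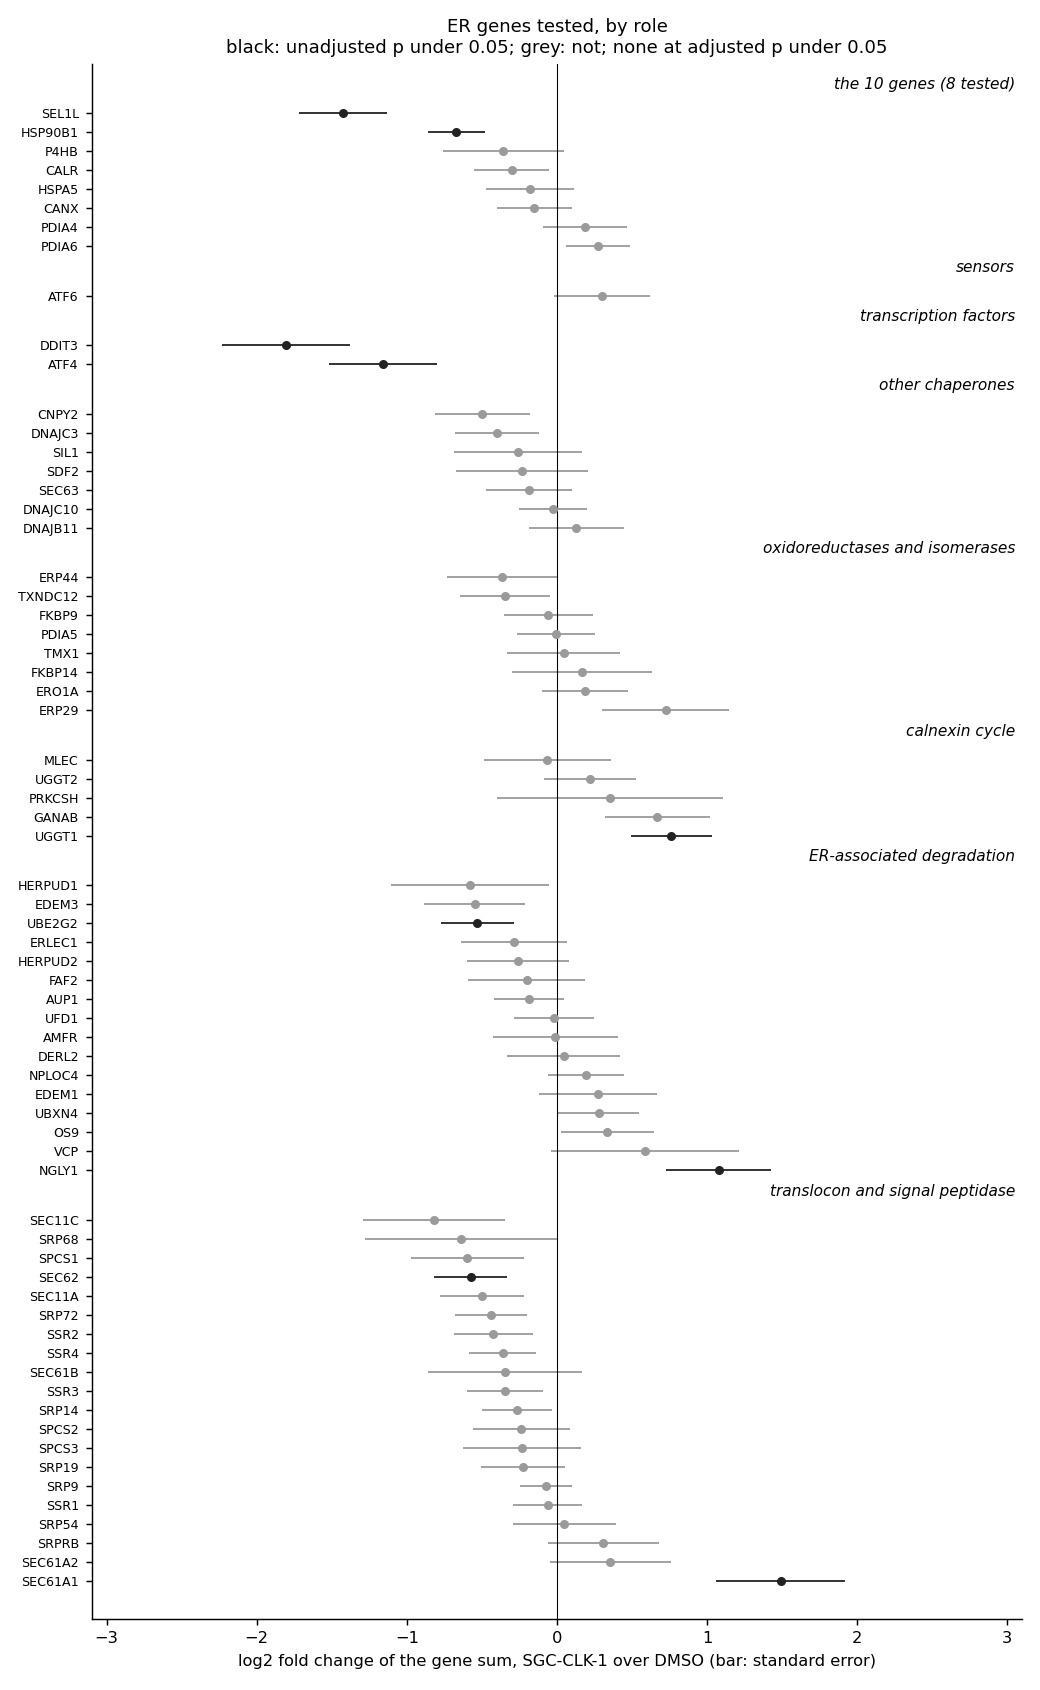
Log2 fold change of the gene sum (SGC-CLK-1 over DMSO) with its standard error for the 8 genes tested of the 10 and the 59 pathway genes tested, grouped by role. Black points had an unadjusted p under 0.05 and no point had an adjusted p under 0.05. DDIT3 (−1.80) and SEL1L (−1.43) are the lowest and SEC61A1 (1.49) the highest.

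**Figure D5:**
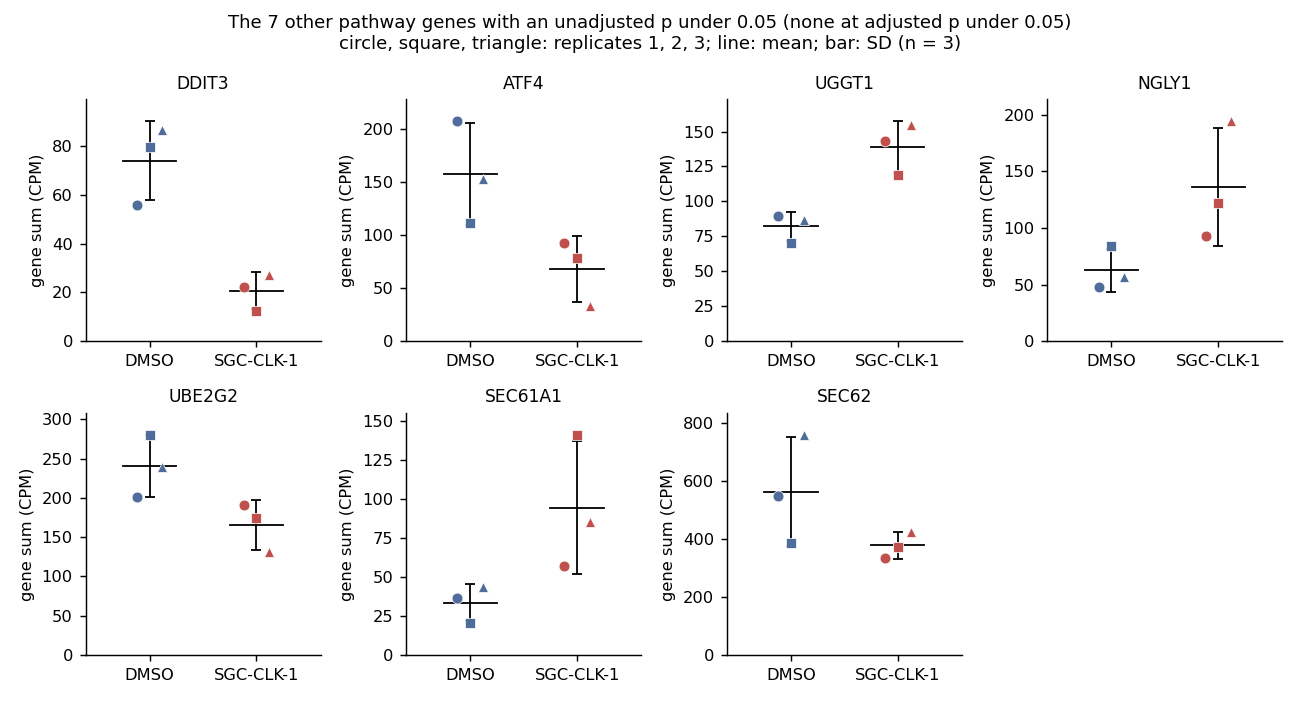
CPM of the gene sum in each library for the 7 pathway genes with an unadjusted p under 0.05, with DMSO in blue, SGC-CLK-1 in red, and lines and bars for the mean and SD of 3 libraries. The genes were chosen by this p, so little overlap follows from the choice. SEC62 overlaps, since SGC-CLK-1 replicate 3 (424.9) was above DMSO replicate 2 (384.5).

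The label of the cells was checked against markers. Of 8 genes used to recognise Ewing's sarcoma, 7 were counted, with CCND1 the most abundant, and NKX2-2, a defining target of the tumour's fusion protein, had 0 counts in all 6 libraries. Their summed level, as CPM over all counts of a library, was 1585, 1695 and 1676 in SGC-CLK-1 and 1941, 1695 and 2038 in DMSO. CCND1 was lower in each SGC-CLK-1 library than in any DMSO library (log2 fold change −0.45, SE 0.20, edgeR adjusted p = 0.323). FCGRT, at 459.9, 481.2 and 558.4 against 641.4, 641.6 and 559.7 CPM after TMM scaling, did not overlap on this scale and did as CPM over all counts, where the highest SGC-CLK-1 library had 493.3 and the lowest DMSO library 450.6 (log2 fold change −0.30, SE 0.19, edgeR adjusted p = 0.519). The part of these markers in the results was not tested. NR0B1, another such target, had 20 counts in all. Markers of plasma cells, whose secretory load gives them many ER chaperones and which are used elsewhere in the series, were at 0 for 7 of 11, and CD38 was the most abundant. Their summed level was 75, 79.9 and 88.5 in SGC-CLK-1 and 84.1, 91.7 and 67.1 in DMSO. Fibroblast markers summed to 75, 68.9 and 96.5 against 38.4, 74.5 and 77.8, mostly DCN, with none at 0. Leukocyte markers summed to 12, 27.6 and 32.2 against 28.8, 7.64 and 13.4, mostly PTPRC, with 2 of 5 at 0. The plasma cell, fibroblast and leukocyte sums overlapped between the groups, and their part in the results above was not tested.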

How the data were processed

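RM82 libraries were tagged with homotrimer UMIs. The authors mapped reads to human transcripts (Ensembl 98) with minimap2, kept secondary alignments, deduplicated UMIs and deposited a raw count per transcript for each library. Which of their deduplication methods made these files is not given in the sources used here. This mapping is described for the nanopore reads of these cells, while the labels name an Illumina kit. Groups were taken from the labels. FRG2 raises a possible exchange, TLE5 fits it for one group only, and it could not be settled. Transcripts were paired with GENCODE 44 by identifier without version (92.3% of 93530), and an unlisted transcript was given 0. Gene sums and transcripts were tested in R 4.3.3 with edgeR 4.0.16 (filterByExpr, minimum count 10 and minimum total 15, TMM, quasi-likelihood F-test, no covariate, Benjamini-Hochberg adjustment over all features tested, threshold 0.05), usage with diffSpliceDGE (Simes), and shares with exact permutation tests (scipy 1.17.1). The edgeR and DESeq2 fits without a block and the usage test were tried on simulated data. The permutation tests, the replicate block and the other scalings and filters were not. DESeq2 1.42.0, other scalings and filters, the replicate block, coding transcripts only and leaving out each library were alternatives.

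Log2 fold changes are edgeR's. Members named were the 10 genes, the 2 transcripts of each with the highest mean count and every transcript that passed, and the 3 genes with the smallest p in each pathway list. The members and lists were chosen with earlier results of these data known. Total counts per library lay between 362826 and 666702, and intervals and limits cover counting error only. The cycle-number table, the common molecular identifier reports and single-cell experiments were not analysed here.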

Additional observations from a re-analysis of the deposited data

How the results depend on the processing

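Of the transcripts called among the 10 genes, SEL1L ENST00000336735 stayed past the threshold in each alternative run, and those of HSP90B1 did not. Their number, 3, was 1 without a filter on low counts and 1 to 3 without single libraries. Called gene sums numbered 15, but 28 with library size only, 169 with no filter, 64 with at least 10 counts in every library, 107 in DESeq2, 0 with protein-coding transcripts only (724 at an unadjusted p under 0.05), 148 with the most abundant transcript of each gene only, a setting added after the data were seen, and 1 to 21 without single libraries. Library size scaling moved the median log2 fold change of all genes to 0.08 and the split of called genes to 8 lower and 20 higher, against 8 and 7. Called transcripts numbered 310, but 162 with no filter, 173 with at least 10 counts in every library, 113 in DESeq2 and 81 to 363 without single libraries. Usage calls numbered 5, but 1 with at least 10 counts in every library and 1 to 5 without single libraries. Deviations from the group mean were hardly correlated between libraries of the same replicate number (0.0639, 0.0243 and 0.0313). Counting error lowers such correlations, so they cannot exclude a pairing. The replicate block gave 36 genes and 427 transcripts, against 15 and 310, and 3 transcripts of the 10 genes. The median log2 fold change of the 8 genes was −0.38 to −0.13 without single libraries and −0.12 with the most abundant transcript only. For the lists it moved to 0.69 (sensors) and −0.050 (other chaperones) with no filter, to −1.11 (transcription factors) and 0.72 (calnexin cycle) with at least 10 counts in every library, and to −1.02 and 0.060 for the latter 2 lists with the most abundant transcript only. These settings also change which genes of a list are tested. DDIT3 was not tested in the last 2 of them, so −1.11 and −1.02 are the values of ATF4 alone. With no filter the sensor list held 6 genes, against 1 in the main fit. For ER-associated degradation the median was 0.060 with library size only, 0.049 with coding transcripts only and −0.17 to 0.093 without single libraries, and without single libraries 0.16 to 0.58 for the calnexin cycle, −0.43 to −0.14 for the translocon list and −0.12 to 0.085 for the oxidoreductases. Signs reversed for 6 of the log2 fold changes named for single genes and transcripts, of which none passed the threshold. The medians of ER-associated degradation and of the oxidoreductases also changed sign. Without single libraries the log2 fold change of the gene sum ran from −0.44 to 0.0055 for HSPA5, −0.54 to 0.018 for CALR and −0.29 to 0.066 for CANX, and CANX was 0.086 with the most abundant transcript only. For single transcripts it ran from −0.36 to 0.18 for CALR ENST00000316448, −0.34 to 0.12 for HSPA5 ENST00000324460 and −0.16 to 0.077 for CANX ENST00000452673, and the last was 0.0014 with library size only. Other causes of these shifts were not tested. The comparison of the XBP1 share between groups and its alternatives were not computed, because 4 libraries had no XBP1 count. Few counts limit what can be said of PDIA3, XBP1, P4HB and the sensors.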

Other observations

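Some ER genes known for a strong induction in the unfolded protein response were near the limit of counting in all 6 libraries. SDF2L1 had 2 counts in SGC-CLK-1 replicate 1 and none elsewhere, CRELD2 had 8 counts in total, MANF 15 and DNAJB9 21. HYOU1, a large chaperone of the hsp70 family, had 20, 3 and 6 counts in SGC-CLK-1 and 8, 20 and 8 in DMSO. The PERK branch genes TRIB3 and PPP1R15A, the latter a phosphatase subunit that restores translation, had 9 and 11 counts in total. PPP1R15A had 0, 1 and 0 counts in SGC-CLK-1 and 3, 5 and 2 in DMSO. The prolyl isomerase PPIB had 3, 2 and 4 counts in SGC-CLK-1 and 6, 11 and 5 in DMSO. In the other direction, DNAJC1 had 7, 8 and 7 counts in SGC-CLK-1 and 1, 1 and 4 in DMSO. TXNDC11 had 20, 5 and 5 counts in SGC-CLK-1 and 0, 10 and 1 in DMSO, with overlap. These genes were below the filter and were named after their counts were seen. Fitted without the filter, none of the 37 pathway genes left out by it passed in edgeR (2 at an unadjusted p under 0.05, EIF2AK3 and PPP1R15A, the latter with an adjusted p of 0.544).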
